A study of Mus musculus with 16 samples.

Results

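The genes for 10 nuclear import receptors were examined in fat from mice whose adipocytes were meant to lack the RNA-binding protein HuR. They are the transportins Tnpo1, Tnpo2 and Tnpo3, the importin beta Kpnb1 and its relatives Ipo5, Ipo7 and Ipo9, and the importin alphas Kpna1, Kpna2 and Kpna4. They were taken by gene symbol, and each has 1 row among the 38396 rows of the expression table, of which 21204 are protein-coding. Tnpo2 had already been seen to differ between genotypes in epididymal fat, and the family was selected on those FPKM values, so its values in epididymal fat are given as a description without a test. RNA-seq libraries had been made from epididymal white fat (eWAT), inguinal white fat (iWAT) and brown fat (BAT) of mice aged 12 weeks. Fat-specific knockout mice (HuR-FKO) carried AdipoQ-Cre and 2 floxed alleles of the HuR gene, written AdipoQ-Cre;HuRf/f, and the controls (Ctrl) were littermates with the same floxed alleles and no Cre (HuRf/f), from floxed mice backcrossed to C57BL/6. There were 3 Ctrl and 3 HuR-FKO libraries for each white depot and 2 and 2 for BAT, every one made from a pool of RNA of 3 mice, and n below is the number of such pools. The adiponectin promoter drives Cre in adipocytes, and the vascular, immune and progenitor cells of a fat pad keep the floxed gene intact.

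Proteins larger than the passive limit of the nuclear pore enter the nucleus bound to import receptors of the importin beta family, which release their cargo when they meet the GTP-bound form of the small GTPase Ran. Importin beta 1, the product of Kpnb1, mostly works through the adaptor importin alpha, which reads the classical nuclear localisation signal. Transportin 1 and transportin 2 instead bind cargo directly, among them many RNA-binding proteins, and HuR itself shuttles between nucleus and cytoplasm as a cargo of transportins.

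The sequences just before the starts of Tnpo2 and Tnpo1 are shown because these close paralogs share cargo, HuR included, while their mRNA levels followed different patterns in the libraries described below. Both windows run 5′ to 3′ from RefSeq (GRCm38.p6, the same build as mm10), hold 250 bases before and 50 bases after the annotated start, and have in capitals each E-box (CACGTG) and each CCAAT box (CCAAT, or ATTGG on the other strand). The Tnpo2 window lies at chr8:85036643-85036942 on the plus strand and the Tnpo1 window at chr13:98926335-98926634 on the minus strand.
Tnpo2: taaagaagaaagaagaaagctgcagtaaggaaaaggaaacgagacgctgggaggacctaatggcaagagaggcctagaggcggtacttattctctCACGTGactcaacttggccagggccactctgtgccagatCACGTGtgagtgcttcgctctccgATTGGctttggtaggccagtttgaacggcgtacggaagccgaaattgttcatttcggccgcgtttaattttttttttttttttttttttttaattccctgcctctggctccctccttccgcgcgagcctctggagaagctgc
Tnpo1: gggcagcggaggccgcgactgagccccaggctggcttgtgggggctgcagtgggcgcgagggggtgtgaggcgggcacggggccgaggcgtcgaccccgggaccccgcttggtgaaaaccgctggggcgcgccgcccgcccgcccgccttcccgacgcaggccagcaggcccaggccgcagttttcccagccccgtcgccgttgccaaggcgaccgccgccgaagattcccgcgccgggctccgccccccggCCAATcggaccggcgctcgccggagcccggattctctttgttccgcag

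The Tnpo2 window held 2 E-boxes and 1 CCAAT box, while the Tnpo1 window held 1 CCAAT box and no E-box. Of 32851 RefSeq windows of 300 bases, 7.15% held an E-box and 37.4% a CCAAT box on either strand. A window was found for 9 of the 10 genes, and the E-box letters occurred in 2 of them, Tnpo2 and Ipo7. The CCAAT box occurred in 7 of the 9. The GC box (GGGCGG on either strand) occurred in 6 of the 9, against 35.7% of all windows, with 4 matches in Tnpo1 and none in the Tnpo2 window shown. A GC-rich stretch starting further downstream belongs to a second RefSeq start of Tnpo2, whose window had 76.0% G and C against 49.3% in the window shown. Expression was measured per gene, so the use of the separate starts was not measured.

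HuR binds U-rich and AU-rich sequence in 3′ untranslated regions, and these regions were read from the transcript with the longest coding sequence of each gene in GENCODE M21. The Tnpo2 region was 2053 bases long and held 2 copies of the pentamer ATTTA, the core of AU-rich elements. They lie close together near its end and are shown with the pentamer in capitals because they are the only copies there, with the position of the pentamer's first base counted from the start of the region.
Tnpo2, first copy, position 1790: ttaaaagaaattATTTAattttttaattt
Tnpo2, second copy, position 1803: tttaattttttaATTTAttttttagttgg

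An ATTTA pentamer occurred in the 3′ untranslated region of each of the 10 genes, and in that of 63.2% of 20088 protein-coding genes. Among 2462 genes whose region was within 80% to 120% of the length of that of Tnpo2, 91.6% held at least 1 copy and the median was 3. Tnpo2 had the lowest density of ATTTA in the family, with 0.974 copies per kb, and Ipo7 the highest, with 5.35 copies per kb. Tnpo1, with a region of 5637 bases, held 11 copies, and Kpna4, with 6940 bases, held 12. The order differed for U-rich sequence, counted as 7 T in a row with overlapping matches included, which 37% of the 20088 genes held. Tnpo2 had 4 such matches and Ipo7 had 0. The others had 11 (Tnpo1), 1 (Tnpo3), 5 (Kpnb1), 2 (Ipo5), 10 (Ipo9), 8 (Kpna1), 0 (Kpna2) and 14 (Kpna4), not scaled by length. These counts describe sequence only, and no binding was measured in these libraries.

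The depots matched their labels by Ucp1, Upk3b and Hoxc10. Ucp1, the uncoupling protein of brown fat, was at 685 to 1165 FPKM (fragments per kilobase of transcript, scaled to the mapped fragments of the library) in BAT. It was at 8.33 to 182 FPKM in iWAT and at most 0.881 FPKM in eWAT. The mesothelial gene Upk3b was at 44.4 to 78.3 FPKM in eWAT and at most 0.116 FPKM elsewhere. Hoxc10, a positional gene of the lower body, was at 12.2 to 18.3 FPKM in iWAT and at most 0.449 FPKM elsewhere. Of the 4 positional genes listed for inguinal fat, 3 were lower in eWAT Ctrl than in iWAT Ctrl and 1 was higher. Their sum was 52.6 to 60.2 FPKM in eWAT Ctrl and 49.7 to 54.6 FPKM in iWAT Ctrl, so the list as a whole does not mark iWAT. Elavl1, the gene that encodes HuR, did not follow the genotype labels. It was at 13.6, 13.8 and 12.2 FPKM in eWAT labelled Ctrl and at 13.9, 15.4 and 13.3 FPKM in eWAT labelled HuR-FKO, at 13.2, 15.8 and 12.4 FPKM against 16.5, 15.3 and 13.9 FPKM in iWAT, and at 8.34 and 7.36 FPKM against 8.98 and 8.17 FPKM in BAT. The groups overlapped in all 3 depots and the mean was higher under the HuR-FKO label in each. The authors did report that HuR was lacking in all 3 depots of the knockout line, as judged by western blot and PCR. Whether the mice used for those assays also gave the sequenced pools is not stated. A gene-level FPKM does not separate the floxed part of the gene from the rest, and the cause of the Elavl1 values was not tested. Directions below therefore refer to libraries labelled Ctrl and HuR-FKO. FPKM holds no read totals. Steps of whole fragments among low values put the depth at 11.6 to 19.4 M fragments, in a search limited to 8 to 20 M. This estimate is uncertain, since only 57.4% to 82.3% of those values came within 0.05 (log2) of a whole number.

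Tnpo2, which encodes transportin 2, was lower in the libraries labelled HuR-FKO in every depot, and in no depot did the groups overlap. In eWAT it was at 16.5, 14.8 and 16.1 FPKM under the Ctrl label and at 8.32, 7.75 and 6.98 FPKM in HuR-FKO, a log2 fold change of -0.95 on log2(FPKM + 1). These are the values that chose the family, and no test is given for them. The libraries of the 2 other depots did not enter that comparison, although the sources do not say whether they came from the same mice. Same-numbered eWAT and iWAT libraries in Ctrl correlated at 0.240, 0.276 and 0.192 after group means were removed. The iWAT Ctrl values may thus not be independent of that comparison.

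In iWAT, Tnpo2 measured 14.2, 13.1 and 13.1 FPKM in the Ctrl pools and 10.7, 9.99 and 8.47 FPKM in HuR-FKO. The means were 13.5 ± 0.634 and 9.73 ± 1.15 FPKM (SD, n = 3 per group), and every HuR-FKO library was below every Ctrl library. The log2 fold change was -0.44, with a standard error of 0.11 and a 95% interval from -0.70 to -0.17. Adjusted over 12706 genes it did not pass (limma, unadjusted p = 0.00562, adjusted p = 0.323).

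In BAT, Tnpo2 measured 12.7 and 12.0 FPKM in the Ctrl pools and 5.40 and 4.70 FPKM in HuR-FKO. The means were 12.4 ± 0.526 and 5.05 ± 0.492 FPKM (SD, n = 2 per group), so the HuR-FKO mean was 0.409 of the Ctrl mean. The log2 fold change was -1.14, with a standard error of 0.14 and a 95% interval from -1.51 to -0.78. It did not pass when adjusted over 10944 genes (limma, unadjusted p = 0.000340, adjusted p = 0.275). The call depends on how the spread is estimated from 4 libraries, since the adjusted p was 0.0013 with the spread taken from all 16 libraries and 0.0381 with the replicate number as a block. The 16 libraries include those of eWAT on which the family was chosen, so the value of 0.0013 is not independent of that choice. With 2 libraries per group, whether the replicate numbers pair the BAT libraries cannot be decided. Leaving out Ctrl replicate 2 gave an adjusted p of 0.0475, while leaving out any other BAT library gave 0.197 to 0.815. Each of these fits sets 1 library against 2, with the spread taken from the group of 2 and the lone library assumed to vary alike.

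The share of genes called gives the scale of these tests. In eWAT 5 of 12330 genes passed an adjusted p under 0.05 (0.0406%), in iWAT 5 of 12706 (0.0394%), and in BAT 0 of 10944 (0%), where an unadjusted p under 0.05 was reached by 316 genes that were higher and 739 that were lower. None of the 10 receptor genes passed in iWAT or BAT. The difference of Tnpo2 was larger in BAT than in iWAT by 0.71 on the log2 scale (95% interval of BAT minus iWAT from -1.10 to -0.31). As a depot by genotype term fitted to 10 libraries, this did not pass either (limma, unadjusted p = 0.00267, adjusted p = 0.999), and 0 of 12881 genes did (0%), with 220 above and 339 below 0 among those with an unadjusted p under 0.05.

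**Figure D1:**
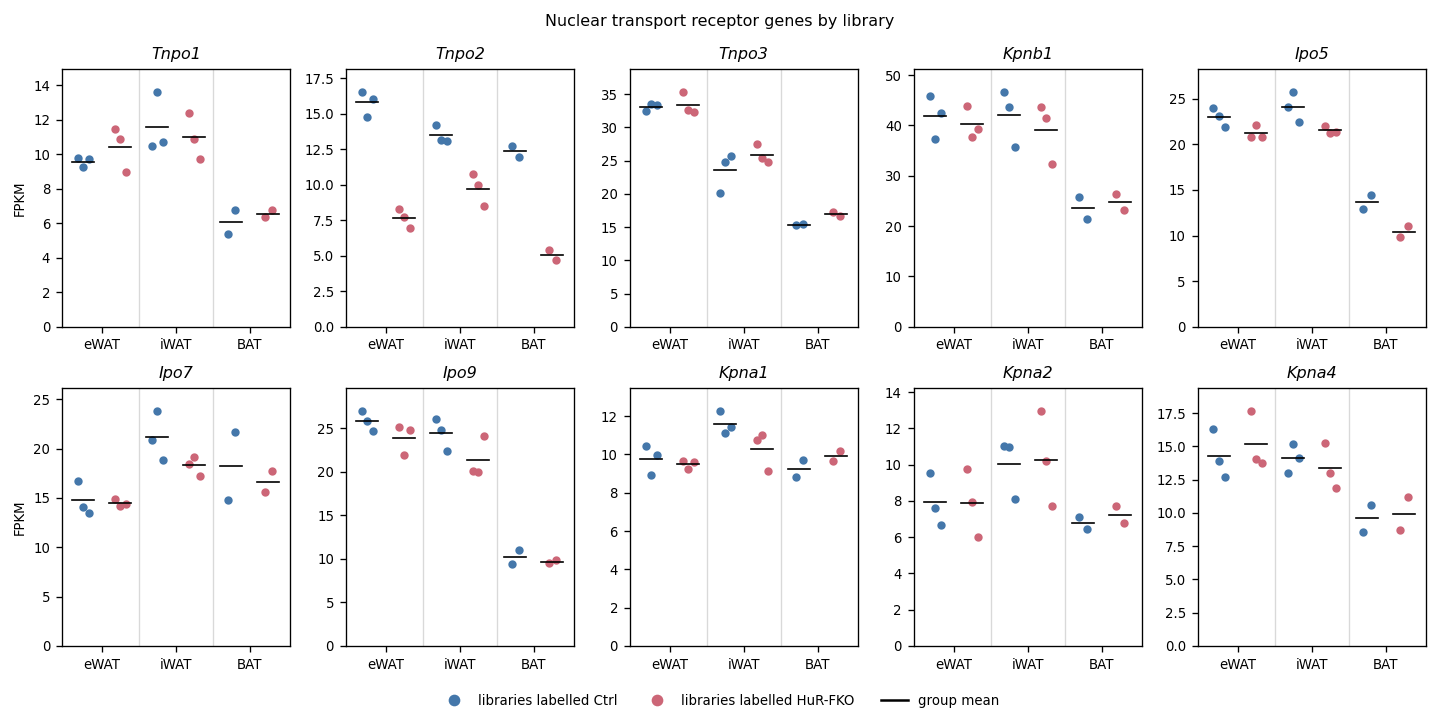
FPKM of each receptor gene in every library (points, axis from 0) with the group mean (bar), by depot, with libraries labelled Ctrl in blue and HuR-FKO in red. Tnpo2 is the gene whose groups are apart in all 3 depots, from 15.8 to 7.69 FPKM in eWAT, 13.5 to 9.73 in iWAT and 12.4 to 5.05 in BAT.

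Other measures also differed between the groups. The mitochondrial genome gave 12.1% to 13.9% of all protein-coding FPKM in eWAT Ctrl and 14.2% to 16.8% in eWAT HuR-FKO, 19.7% to 23.3% against 23.9% to 27.3% in iWAT, and 37.7% to 39.2% against 43.7% to 44.5% in BAT. The summed FPKM of 9 muscle genes was 2033 to 3751 in BAT Ctrl and 1187 to 1235 in BAT HuR-FKO, and 345 to 2620 against 14.5 to 577 in iWAT. In eWAT that sum was 6.43 to 8.28 for Ctrl against 5.39 to 8.69 for HuR-FKO. In iWAT the sum of 8 progenitor and fibroblast genes lay at 2992 to 3524 for Ctrl against 2150 to 2752 for HuR-FKO, and that of 8 brown fat genes was 583 to 799 and 986 to 1933. The sum of 8 endothelial genes was 408 to 477 against 505 to 562 in eWAT, 284 to 317 against 326 to 376 in iWAT, and overlapped in BAT at 205 to 225 against 224 to 279. The sum of 3 red cell genes was higher in HuR-FKO in each depot, at 1355 to 2007 against 2619 to 3279, 778 to 978 against 1101 to 2171, and 878 to 970 against 1164 to 1411. The T cell sum of 7 genes was 7.61 to 10.7 against 10.8 to 14.2 in eWAT and 1.27 to 2.00 against 2.26 to 4.48 in BAT, and that of 8 adipocyte genes was 14632 to 14994 against 13984 to 14335 in BAT and overlapped in both white depots. The sum of 10 proliferation genes was 9.98 to 11.7 against 12.4 to 13.5 in eWAT and 2.71 to 3.001 against 3.79 to 6.91 in BAT, and overlapped in iWAT. That of 4 positional genes of inguinal fat was 52.6 to 60.2 against 60.6 to 80.1 in eWAT and 7.94 to 8.43 against 3.98 to 5.63 in BAT, and overlapped in iWAT. No gene of these lists was at 0 in all libraries of a group, except in the positional list in BAT (1 gene in Ctrl and 2 in HuR-FKO). The part of these measures in the values of Tnpo2 and of the other receptors, such as Kpna2, was not tested. In whole fat, fewer cells of a type and less RNA per cell cannot be told apart.

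Tnpo1, which encodes transportin 1, showed no such difference. It was at 9.75, 9.24 and 9.70 FPKM in eWAT Ctrl and at 11.5, 10.9 and 8.95 FPKM in eWAT HuR-FKO. In iWAT it was at 10.5, 13.6 and 10.7 FPKM against 12.4, 10.9 and 9.69 FPKM, and in BAT at 5.37 and 6.78 FPKM against 6.34 and 6.75 FPKM. The groups overlapped in all 3 depots. The log2 fold change was -0.07 in iWAT (95% interval from -0.39 to 0.25, adjusted p = 0.944 from limma) and 0.10 in BAT (95% interval from -0.31 to 0.51, adjusted p = 0.893). The Tnpo1 gene spans the pseudogene Gm5453 on the other strand, listed at 23.8 to 48.9 FPKM in white fat and at 0 to 0.264 FPKM in BAT, and its part in the Tnpo1 values was not tested.

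Because FPKM is scaled by transcript length, the 2 paralogs can be set against each other within a library. Tnpo2 was above Tnpo1 in every Ctrl library of eWAT, where the ratio was 1.60 to 1.69, and of BAT, where it was 1.77 and 2.37. In iWAT Ctrl the ratio was 1.36, 0.968 and 1.22. In all 8 libraries labelled HuR-FKO Tnpo2 was below Tnpo1, at 0.713 to 0.780 of it in eWAT, 0.868 to 0.919 in iWAT, and 0.697 and 0.851 in BAT. The ratios of the groups did not overlap in any depot, and they do not depend on scaling between libraries. They carry the same Tnpo2 values as above and add no separate evidence of its direction.

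Summed over both paralogs, the level was 25.4 ± 1.17 FPKM in eWAT Ctrl and 18.1 ± 1.97 FPKM in eWAT HuR-FKO (SD, n = 3 per group). In iWAT the sum was 25.1 ± 1.52 against 20.7 ± 2.47 FPKM, and in BAT it was 18.4 ± 0.464 against 11.6 ± 0.201 FPKM (n = 2 per group). The groups did not overlap in any depot, but these sums carry the same Tnpo2 values, those that chose the family in eWAT included. The sum over all 10 receptor genes was 196 ± 11.1 against 184 ± 11.2 FPKM in eWAT, 196 ± 12.4 against 181 ± 13.6 FPKM in iWAT and 125 ± 6.22 against 117 ± 1.34 FPKM in BAT. It overlapped between the genotypes in both white depots, from 188 to 209 against 177 to 197 FPKM in eWAT and from 182 to 207 against 167 to 194 FPKM in iWAT. In BAT it did not, at 121 to 129 against 116 to 118 FPKM, where 41.4% of all genes tested had no overlap. This sum includes Tnpo2 as well.

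**Figure D2:**
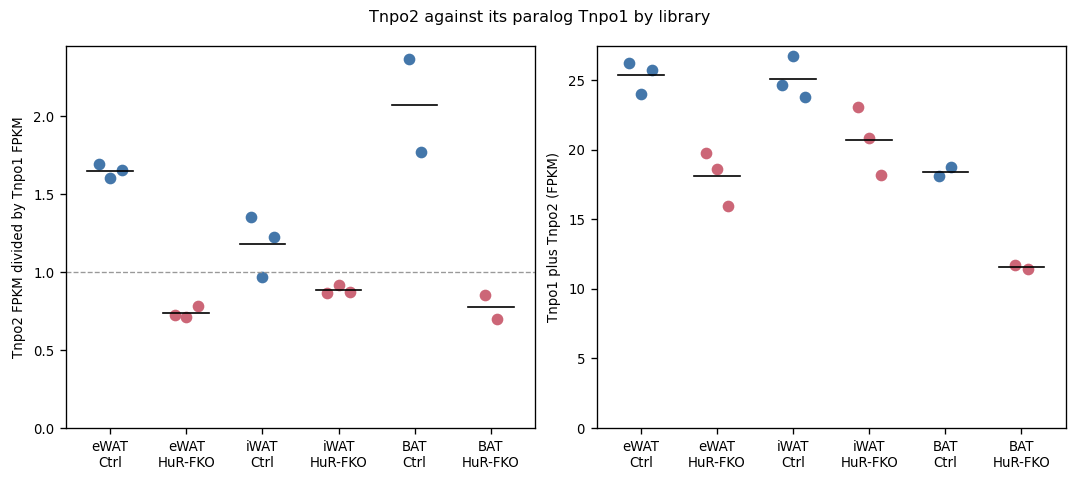
Left, Tnpo2 FPKM divided by Tnpo1 FPKM in each library, with a dashed line at equal levels, and right, their sum in FPKM (points are libraries, bars are group means, both axes start at 0). All 8 HuR-FKO libraries lie below the line of equal levels, and 1 of the 8 Ctrl libraries does, at 0.968 in iWAT.

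Tnpo3, which encodes the importer of serine- and arginine-rich splicing factors, was the transportin with the highest level in white fat. It was at 32.5, 33.5 and 33.4 FPKM in eWAT Ctrl and at 35.3, 32.6 and 32.3 FPKM in eWAT HuR-FKO. In iWAT it was at 20.2, 24.8 and 25.7 FPKM against 27.6, 25.4 and 24.8 FPKM, with a log2 fold change of 0.14 (95% interval from -0.14 to 0.41, adjusted p = 0.812 from limma). In BAT it was at 15.3 and 15.4 FPKM against 17.2 and 16.7 FPKM, so the groups did not overlap, with a log2 fold change of 0.13 (95% interval from -0.19 to 0.45, adjusted p = 0.803). The end of the Tnpo3 gene overlaps Irf5 on the other strand, and it is not stated whether strand was used in the quantification.

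Kpnb1, the carrier that importin alpha joins, had the highest level of the family with group means of 40.3 and 41.9 FPKM in eWAT and 39.1 and 42.0 FPKM in iWAT. It was at 45.9, 37.4 and 42.4 FPKM in eWAT Ctrl and at 43.9, 37.7 and 39.4 FPKM in eWAT HuR-FKO, at 46.6, 43.7 and 35.7 against 43.7, 41.4 and 32.4 FPKM in iWAT, and at 25.7 and 21.5 against 26.3 and 23.2 FPKM in BAT. Its groups overlapped in every depot. The spread between libraries of a group was as large as any difference, and the log2 fold change was -0.10 in iWAT and 0.07 in BAT, with 95% intervals from -0.45 to 0.25 and from -0.32 to 0.45.

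Ipo5, a receptor that imports ribosomal proteins and histones, was the next most different gene in BAT after Tnpo2. It was at 12.9 and 14.5 FPKM in BAT Ctrl and at 9.82 and 11.1 FPKM in BAT HuR-FKO. The groups did not overlap, and the log2 fold change was -0.36 (95% interval from -0.72 to 0.01, unadjusted p = 0.0532, adjusted p = 0.524 from limma). In iWAT it was at 24.1, 25.7 and 22.4 FPKM against 22.0, 21.3 and 21.3 FPKM, again without overlap, with a log2 fold change of -0.15 (95% interval from -0.37 to 0.07, adjusted p = 0.697). In eWAT it was at 24.0, 23.1 and 21.9 against 20.8, 22.1 and 20.8 FPKM, and 1 HuR-FKO library reached into the Ctrl range.

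Ipo7, which also imports ribosomal proteins and histone H1, was at 16.8, 14.0 and 13.5 FPKM in eWAT Ctrl and 14.9, 14.2 and 14.3 FPKM in eWAT HuR-FKO. In iWAT it was at 20.9, 23.8 and 18.9 against 18.5, 19.2 and 17.2 FPKM, and in BAT at 14.8 and 21.6 against 15.6 and 17.7 FPKM. The 2 BAT Ctrl libraries lay outside both HuR-FKO libraries, 1 on either side. Ipo9, an importer of core histones and actin, was at 26.9, 25.8 and 24.7 against 25.1, 21.9 and 24.7 FPKM in eWAT, 26.1, 24.7 and 22.4 against 20.1, 19.996 and 24.1 FPKM in iWAT, and 9.39 and 11.01 against 9.48 and 9.87 FPKM in BAT. Both genes overlapped between genotypes in each depot, with log2 fold changes in iWAT of -0.20 for Ipo7 (95% interval from -0.46 to 0.07, adjusted p = 0.671 from limma) and -0.19 for Ipo9 (95% interval from -0.45 to 0.08, adjusted p = 0.696).

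The importin alpha adaptors differed little between the genotypes. Kpna1 was at 10.4, 8.93 and 9.95 FPKM in eWAT Ctrl and 9.67, 9.24 and 9.58 FPKM in eWAT HuR-FKO, at 12.2, 11.1 and 11.4 against 10.7, 10.99 and 9.12 FPKM in iWAT, and at 8.82 and 9.69 against 9.65 and 10.2 FPKM in BAT. Its iWAT groups were separate by a small margin, with a log2 fold change of -0.16 (95% interval from -0.42 to 0.09, adjusted p = 0.734 from limma). Kpna2, the adaptor most tied to dividing cells, was at 9.52, 7.61 and 6.69 against 9.76, 7.96 and 6.01 FPKM in eWAT, 11.03, 10.97 and 8.08 against 12.9, 10.2 and 7.74 FPKM in iWAT, and 7.12 and 6.43 against 7.72 and 6.77 FPKM in BAT. Kpna4 was at 16.3, 13.9 and 12.7 against 17.6, 14.1 and 13.8 FPKM in eWAT, 13.004, 15.2 and 14.2 against 15.3, 12.99 and 11.9 FPKM in iWAT, and 8.60 and 10.6 against 8.70 and 11.2 FPKM in BAT. Kpna2 and Kpna4 overlapped between genotypes in all 3 depots, and their log2 fold changes in iWAT and BAT were from -0.08 to 0.08.

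Across the family, Tnpo2 stood apart from the 9 other genes in size in iWAT and BAT. Their log2 fold changes were from -0.20 to 0.14 in iWAT and from -0.36 to 0.13 in BAT, and their lowest adjusted p was 0.671 in iWAT and 0.524 in BAT. In eWAT, where the difference of Tnpo2 led to the choice of the family, theirs were from -0.11 to 0.11, given as a description. In iWAT 8 of the 10 genes were lower and 2 higher in HuR-FKO, with a median of -0.13 beside -0.04 over all genes tested. In BAT 4 were lower and 6 higher, with a median of 0.06 beside -0.05. Groups that did not overlap were counted for 1 of the 10 genes in eWAT, where 13.2% of all genes tested had none, for 3 of the 10 in iWAT, where 14.5% had none, and for 3 of the 10 in BAT, where groups of 2 left 41.4% without overlap. The gene counted in eWAT was Tnpo2, on which the family was chosen. The 95% intervals of the 9 other genes in iWAT lay between -0.46 and 0.47.

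**Figure D3:**
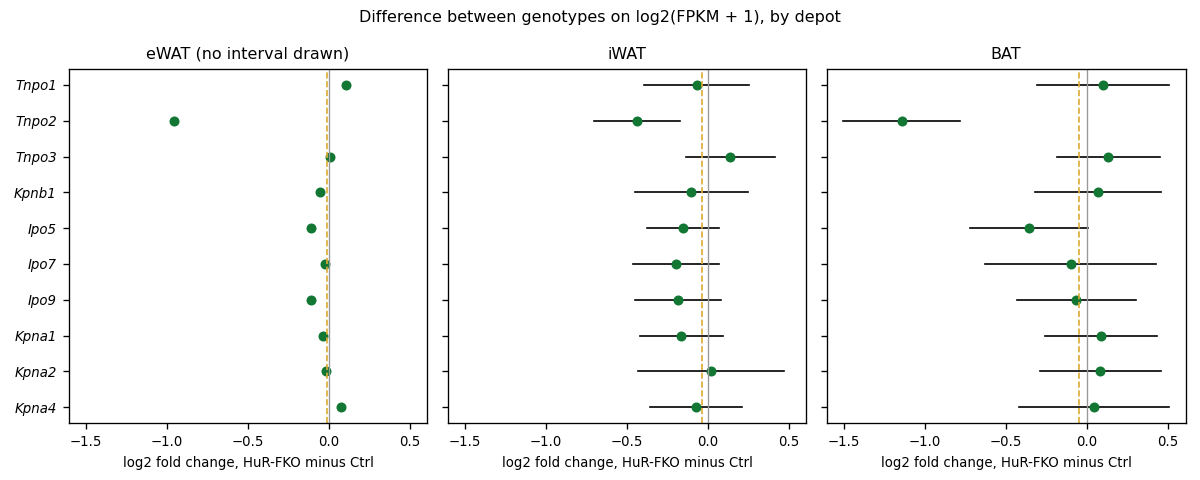
Log2 fold change (HuR-FKO minus Ctrl, on log2(FPKM + 1)) of the 10 receptor genes in each depot, with 95% intervals from limma in iWAT and BAT and none in eWAT, where the family was chosen. The dashed line is the median of all genes tested. The intervals of Tnpo2, from -0.70 to -0.17 in iWAT and from -1.51 to -0.78 in BAT, do not reach 0.

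The depots themselves were compared within each genotype label. Tnpo3 and Ipo7 were the receptors most unlike between the white depots in Ctrl, in opposite directions. Tnpo3 was at a mean of 33.1 ± 0.530 FPKM in eWAT and 23.5 ± 2.97 FPKM in iWAT in Ctrl (SD, n = 3 per group). It was higher in eWAT by 0.48 on the log2 scale in Ctrl (95% interval from 0.23 to 0.74, adjusted p = 0.0120 from limma) and by 0.35 in HuR-FKO (adjusted p = 0.0159). Ipo7 was lower in eWAT, at 14.8 ± 1.76 against 21.2 ± 2.45 FPKM in Ctrl, with a log2 fold change of -0.49 (95% interval from -0.85 to -0.14, adjusted p = 0.0451), and of -0.32 in HuR-FKO (adjusted p = 0.0322). Tnpo3 and Ipo7 were the 2 called among the 9 genes tested in each label, beside 28.1% of all genes in Ctrl and 29.9% in HuR-FKO. The call of Ipo7 in Ctrl was lost without eWAT replicate 2 (adjusted p = 0.128), eWAT replicate 3 (0.142), iWAT replicate 1 (0.0918) or iWAT replicate 2 (0.153), and also with a pseudocount of 0.1 (0.0502), no FPKM minimum (0.0670), all genes of the table (0.0735) or no trend (0.0525). In HuR-FKO it was lost without any library other than iWAT replicate 3 (0.0570 to 0.125) and with all 16 libraries in 1 fit (0.0823). The call of Tnpo3 in HuR-FKO was lost without eWAT replicate 1 (adjusted p = 0.0529) or iWAT replicate 2 (0.0667). Lymphocyte genes differed between these depots too, with a B cell sum of 7 genes at 4.84 to 7.10 FPKM in eWAT Ctrl and 50.8 to 254 FPKM in iWAT Ctrl, and their part in these values was not tested. For Tnpo2, whose eWAT values were used in choosing the family, the means without a test were 15.8 FPKM in eWAT and 13.5 FPKM in iWAT in Ctrl, and 7.69 and 9.73 FPKM in HuR-FKO.

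Ordered by mean, Tnpo2 was at 15.8 FPKM in eWAT Ctrl, 13.5 in iWAT Ctrl, 12.4 in BAT Ctrl, 9.73 in iWAT HuR-FKO, 7.69 in eWAT HuR-FKO and 5.05 in BAT HuR-FKO. The ranges of neighbours in this order did not overlap, although iWAT HuR-FKO ended at 8.47 and eWAT HuR-FKO began at 8.32 FPKM. The 3 Ctrl groups were thus above the 3 HuR-FKO groups, while the place of the BAT groups depends on the scaling between depots.

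Levels in BAT have to be read against a shift of the whole table. The median protein-coding gene was lower in BAT than in iWAT by 0.69 on the log2 scale in Ctrl and by 0.70 in HuR-FKO, and lower than in eWAT by 0.66 and 0.72. With FPKM as deposited, all 10 receptor genes were lower in BAT than in iWAT in Ctrl and 7 were called, where 65.6% of all genes were called lower. In HuR-FKO 7 were called, where 68.3% were. Tnpo2 was among these 7, and its spread in that fit came partly from the eWAT libraries on which the family was chosen. Without single libraries the calls of Kpna2 in Ctrl (adjusted p up to 0.127, without BAT replicate 2) and of Kpna4 (up to 0.0789 in Ctrl, without BAT replicate 1, and 0.315 in HuR-FKO, without BAT replicate 1) were lost. Against eWAT, 6 of the 9 genes other than Tnpo2 were called lower in each label, where 64.9% and 68.6% of all genes were. Without BAT replicate 1 the calls against eWAT of Tnpo1 (0.0507) and Kpna4 (0.0719) were lost in Ctrl, and that of Kpna4 (0.09996) in HuR-FKO. After median-ratio scaling, which centres the typical gene, 49.9% of the calls between BAT and iWAT in Ctrl were higher in BAT, against 11.9% without it.

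Under that scaling most of the family changed sign. In Ctrl, Tnpo2 was higher in BAT than in iWAT by 0.67 on the log2 scale (adjusted p = 0.000713 from limma), Ipo7 by 0.58 (adjusted p = 0.0135) and Kpna1 by 0.47 (adjusted p = 0.00614), while Ipo9 was lower by 0.40 (log2 fold change -0.40, adjusted p = 0.0119). These 4 of the 10 passed, where 57.3% of all genes did. The fits took the spread from the eWAT libraries too, so the p-values of Tnpo2 under either label are not independent of the choice of the family. In HuR-FKO the scaled difference of Tnpo2 was -0.07 (adjusted p = 0.622). There Ipo7 was higher by 0.69 (adjusted p = 0.000407), Kpna1 by 0.75 (adjusted p = 0.000416), Kpna4 by 0.40 (adjusted p = 0.0385) and Tnpo3 by 0.24 (adjusted p = 0.0460), where 58.3% of all genes passed. Ipo9 was lower in BAT under both scalings and in both labels, at 10.2 ± 1.15 FPKM in BAT Ctrl and 24.4 ± 1.88 FPKM in iWAT Ctrl, but its scaled difference of -0.26 in HuR-FKO did not pass (adjusted p = 0.107). Relative to iWAT, Tnpo3, Ipo7, Kpna1, Kpna2 and Kpna4 lay above the median gene in BAT under both labels. Of these, Ipo7 and Kpna1 passed after scaling in both.

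**Figure D4:**
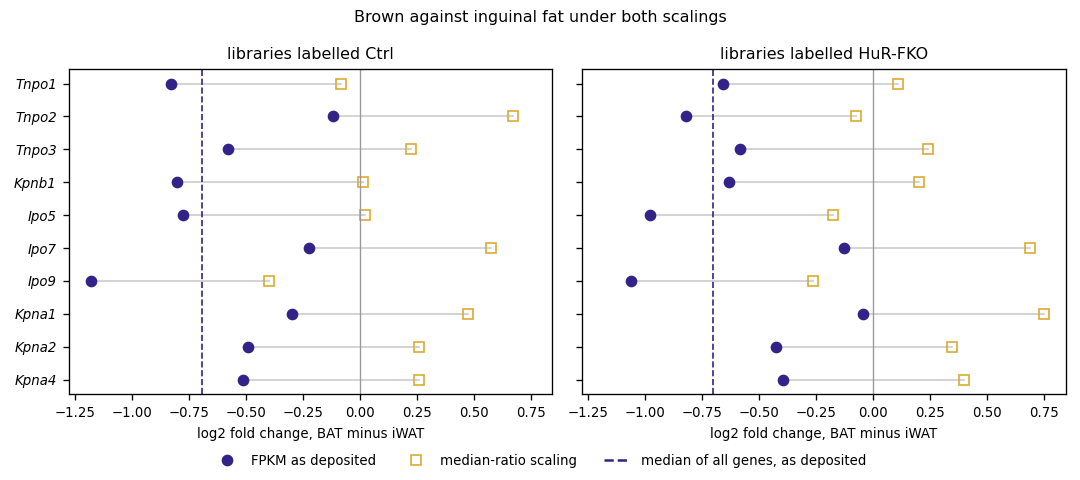
Log2 fold change of BAT minus iWAT for each receptor gene with FPKM as deposited (filled circles) and after median-ratio scaling (open squares), in libraries labelled Ctrl (left) and HuR-FKO (right). The dashed line is the median of all genes as deposited, at -0.69 and -0.70. Ipo9 lies left of the line in both panels and Tnpo2 well right of it in Ctrl only.

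Other genes of nuclear transport were described for comparison with the family. No gene of these lists passed in iWAT or BAT, and direction counts are to be read against the 59.7% of all genes in iWAT and 58.5% in BAT that were below 0. Median-ratio scaling moved the median of all genes by 0.047 in iWAT and 0.062 in BAT, which is close to the size of several list medians. Of 8 further import receptors tested, 7 were lower in HuR-FKO in iWAT and 7 in BAT, with medians of -0.07 and -0.11 on the log2 scale. Their lowest p belonged to Ipo4 in iWAT, at 26.3 against 19.5 FPKM (adjusted p = 0.532 from limma), and to Ipo13 in BAT, at 19.4 and 9.62 FPKM (adjusted p = 0.368). Ipo13, which can also carry cargo out of the nucleus, had a log2 fold change of -0.91 in BAT. Of the export receptors, all 9 tested were lower in iWAT, with a median of -0.06, and 5 of 8 were lower in BAT, with a median of -0.13. Xpot, the exporter of transfer RNA, had the lowest p in both, at 9.28 against 8.05 FPKM in iWAT (adjusted p = 0.637) and 6.99 against 5.56 FPKM in BAT (adjusted p = 0.590).

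The genes of the Ran cycle, which sets the direction of transport, were lower in 7 of 7 cases in iWAT, with a median of -0.17, and in 5 of 7 in BAT, with a median of -0.21. Ranbp1, a cofactor of Ran GTP hydrolysis, was at 52.7 FPKM in iWAT Ctrl and 40.4 FPKM in iWAT HuR-FKO (log2 fold change -0.40, adjusted p = 0.599 from limma). Rangrf, a Ran guanine nucleotide release factor, was at 15.7 FPKM in BAT Ctrl and 11.8 FPKM in BAT HuR-FKO (adjusted p = 0.487). Of 27 nucleoporins tested in iWAT 19 were lower and 8 higher, and of 26 in BAT 15 were lower and 11 higher, with medians of -0.05 and -0.02, near those of all genes at -0.04 and -0.05. Gle1, an mRNA export factor at the pore, was at 13.2 against 10.4 FPKM in iWAT (adjusted p = 0.400), and Nup35 at 5.55 against 3.87 FPKM in BAT (adjusted p = 0.469).

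Among 17 genes for cargoes of transportin 1 and 2, 9 were lower and 8 higher in iWAT, with a median of -0.0035, and 15 were lower and 2 higher in BAT, with a median of -0.22. Hnrnph1, an hnRNP splicing regulator, was at 103 FPKM in BAT Ctrl and 71.1 FPKM in BAT HuR-FKO (log2 fold change -0.53, adjusted p = 0.349 from limma). Cirbp, the cold-inducible RNA-binding protein, was at 46.1 FPKM in iWAT Ctrl and 61.9 FPKM in iWAT HuR-FKO (adjusted p = 0.682). Among 11 genes for cargoes of transportin 3, 9 were lower in iWAT, with a median of -0.08, and 6 in BAT, with a median of -0.16. Srsf9, a splicing factor of the SR family, had the lowest p of that list in iWAT and BAT, at 41.7 against 31.3 FPKM in iWAT (adjusted p = 0.449) and 32.5 against 21.1 FPKM in BAT (adjusted p = 0.436). Of HuR and its export ligands, Anp32a was at 210 against 247 FPKM in iWAT (adjusted p = 0.576) and Set at 59.3 against 49.7 FPKM in BAT (adjusted p = 0.611).

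In eWAT, whose genotype contrast was used in choosing the family, the lists are given as values only. The further import receptors had 5 genes higher and 3 lower, the export receptors 4 and 4, the Ran cycle 4 and 3, the nucleoporins 11 and 16, the transportin 1 and 2 cargoes 5 and 12, and the transportin 3 cargoes 5 and 6. Ranbp1 was at 47.0 FPKM in eWAT Ctrl and 32.4 FPKM in eWAT HuR-FKO, Srsf9 at 37.2 and 27.9 FPKM, and Pabpn1, the nuclear poly(A)-binding protein, at 135 and 112 FPKM.

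Between the white depots in Ctrl, the export receptors were lower in eWAT for 8 of 9 genes, of which 3 were called, where 15.9% of all genes were called lower and 12.2% higher. Xpo1, the CRM1 exporter of proteins with a leucine-rich export signal, was at 14.0 FPKM in eWAT and 21.3 FPKM in iWAT (adjusted p = 0.0227 from limma), and Nxf1, the mRNA exporter, at 31.9 and 45.4 FPKM (adjusted p = 0.0194). Under the HuR-FKO label 8 of the 9 export receptors were again lower in eWAT, but only 1 was called. It was Nxf1, at 34.1 and 43.8 FPKM (adjusted p = 0.0427 from limma), so the call of Xpo1 was seen in Ctrl only. Of 27 nucleoporins 3 were called lower and 1 higher in eWAT, no larger a share than among all genes. Nup210, a membrane nucleoporin, was at 1.67 FPKM in eWAT and 9.98 FPKM in iWAT in Ctrl (adjusted p = 0.00258) and at 1.91 and 11.9 FPKM in HuR-FKO (adjusted p = 0.00204). Tpr, of the nuclear basket, was the nucleoporin called higher, at 55.6 and 43.0 FPKM in Ctrl (adjusted p = 0.0487 from limma). Under the HuR-FKO label 2 nucleoporins were called lower and 0 higher, so the call of Tpr was not seen there. In HuR-FKO 6 of the 17 transportin cargoes were called lower in eWAT, where 14.9% of all genes were, among them Hnrnpa1, the prototype cargo of transportin 1, at 72.3 and 97.2 FPKM (adjusted p = 0.0138), and Hnrnpa3 at 83.0 and 124 FPKM (adjusted p = 0.00930). In Ctrl 2 of the 17 were called lower and 1 higher. The T cell sum of 7 genes was 7.61 to 10.7 FPKM in eWAT Ctrl and 118 to 211 FPKM in iWAT Ctrl. The part of lymphocytes in the values of these transport genes, Nup210 among them, was not tested.

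The genes whose levels followed those of Tnpo2 most closely were not other import receptors. Likeness was the root mean square difference of log2(FPKM + 1), each gene centred on its own mean, over 16 libraries and 13237 genes, and Tnpo2 itself varied by 0.479 on that scale. The 5 nearest were Pnpla3 (0.239), Tep1 (0.253), Mterfd1 (0.257), BC026590 (0.268) and Srsf9 (0.269). Pnpla3, a lipid droplet protein, had group means of 172 and 108 FPKM in eWAT Ctrl and HuR-FKO, 169 and 88.8 FPKM in iWAT, and 169 and 60.1 FPKM in BAT. Tep1, a telomerase-associated protein, was at 6.29 and 3.83 FPKM, 7.68 and 5.46 FPKM, and 4.34 and 2.59 FPKM in the same order. Ipo5 was the nearest of the other receptors, at rank 498 with 0.395, and Tnpo1 stood at rank 4078 and Tnpo3 at rank 6311. The ranking used all libraries, eWAT included, and is a description without a test.

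Tnpo2 (ENSMUSG00000031691) lies on chromosome 8 of mm10 from 85036915 to 85057583 on the plus strand and has up to 25 exons. Elavl1 is on the same chromosome, 80.7 Mb away. The Tnpo2 gene overlaps A230103J11Rik on the other strand, which was at 1.63 to 1.89 FPKM in eWAT Ctrl and 1.07 to 1.65 FPKM in eWAT HuR-FKO, 1.81 to 2.45 against 1.33 to 1.57 FPKM in iWAT, and 0.187 to 0.190 against 0.180 to 0.234 FPKM in BAT. Of 18 protein-coding genes within 100 kb, 11 passed the minimum in each depot, and none was called in iWAT or BAT (limma). Their log2 fold changes were from -0.37 to 0.33 in eWAT, from -0.20 to 0.33 in iWAT and from -0.33 to 0.75 in BAT, where Junb, a stress-responsive transcription factor, had means of 4.01 (Ctrl) and 7.09 FPKM (HuR-FKO). The nearest tested gene before it, Trir, was at 67.4 and 65.3 FPKM in eWAT Ctrl and HuR-FKO, 68.1 and 64.6 FPKM in iWAT, and 34.5 and 29.7 FPKM in BAT. The nearest after it, Fbxw9, was at 6.53 and 8.48 FPKM, 5.62 and 5.495 FPKM, and 2.06 and 2.38 FPKM. Each of the 11 had a less negative log2 fold change than Tnpo2 in every depot, although eWAT is the depot in which Tnpo2 was chosen.

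**Figure D5:**
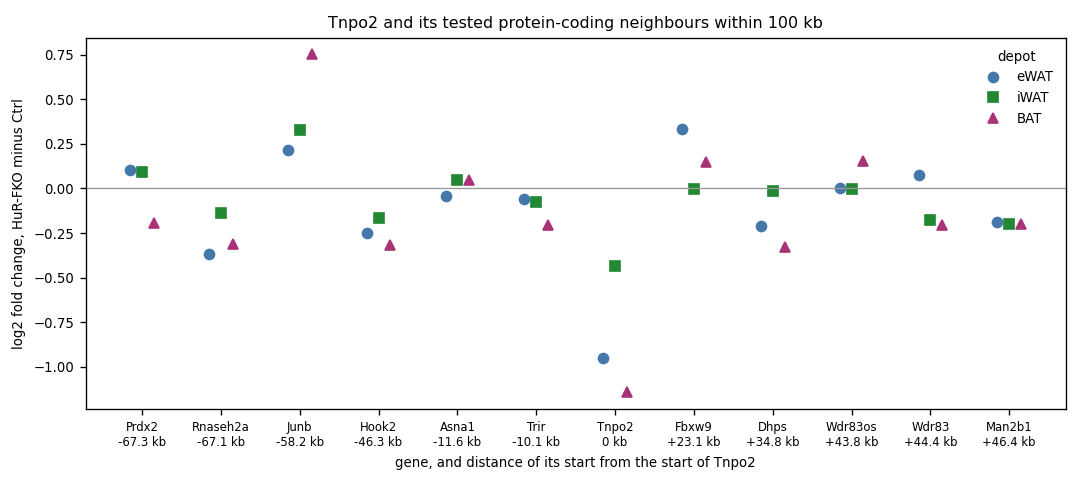
Log2 fold change (HuR-FKO minus Ctrl) of Tnpo2 and the 11 protein-coding genes above the minimum within 100 kb, in order of distance of their starts from that of Tnpo2 (not to scale), in eWAT (circles), iWAT (squares) and BAT (triangles). Tnpo2 is the lowest point in each depot, at -0.95, -0.44 and -1.14, and was chosen on its difference in eWAT.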

How the data were processed

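Total RNA was extracted with a Qiagen miRNeasy kit and made into directional libraries. Read pairs were mapped by the authors with TopHat2 2.0.11 (mm10), and the deposited values are gene FPKM from Cufflinks 2.1.1. The annotation release and any use of strand in quantification are not given in the sources used here. Rows were matched to GENCODE M21 by gene ID (36548 of 38371 IDs).

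Protein-coding genes with a group mean above 1 FPKM in at least 1 group of the fit, the minimum the authors used, were kept and taken as log2(FPKM + 1), a scale on which changes of low genes come out too small. A library's FPKM summed to 578835 to 676812 over protein-coding genes, and to 719411 to 12928419 over all rows. Each depot was fitted with limma 3.58.1 in R 4.3.3 (eBayes with a trend), two-sided, with Benjamini-Hochberg adjustment over all genes of the fit and a threshold of 0.05. Depots were compared in 1 fit per genotype label, without a replicate block. Exact permutation cannot give p below 0.1 with 3 against 3 libraries or 0.333 with 2 against 2, so none was used. Replicates are pools of mice, so p-values measure the spread between pools, and the sources do not say whether depots came from the same mice.

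The members and lists were chosen with earlier results of these data known. Named genes were all members, Elavl1, the genes of each transport list past the threshold (up to 4) or with the lowest p, and the 5 most like Tnpo2. In the comparisons with BAT the lists are not described, since all genes were shifted there, and between the white depots only some of the genes the rule gives are described. Junb, Trir and Fbxw9 were named after their values were seen.

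Same-numbered libraries correlated, after group means were removed, at 0.240, 0.276 and 0.192 between eWAT and iWAT in Ctrl, which counts as pairing. Differently numbered ones there were all negative. Removing group means forces them to be negative on balance where same-numbered ones are positive, so they add no separate support for pairing. In HuR-FKO the values were 0.070, 0.047 and 0.225, while a differently numbered pair reached 0.103, which does not count. Between genotypes they were 0.244, -0.260 and -0.078 (eWAT) and 0.083, 0.025 and 0.386 (iWAT), which does not count either. In BAT the value was 0.367 for same-numbered and -0.367 for other pairs. With 2 libraries per group these mirror each other, so they cannot decide on pairing. In simulated data a set of genes was changed by exactly 1 on the log2 scale, with independent noise for each gene. Of these, 91.5% were found in iWAT, 70.5% in BAT, 88.0% between BAT and iWAT in Ctrl and 29.5% in the interaction. So many changed genes ease the adjustment for each. The shares therefore do not give the sensitivity of the genotype fits, where 5 genes passed in iWAT and 0 in BAT. Alternatives were a pseudocount of 0.1, no minimum, median-ratio scaling, all genes, no trend, the replicate block, all 16 libraries in 1 fit, and leaving out each library.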

Additional observations from a re-analysis of the deposited data

How the results depend on the processing

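Of the log2 fold changes of the 10 genes under 7 alternatives, 646 were counted as unchanged, 25 changed sign, 16 lost and 11 gained a call. A further 2 values given without a test moved, those of Tnpo2 in BAT minus eWAT under median-ratio scaling (to 0.44 in Ctrl and 0.25 in HuR-FKO). Tested values were counted as unchanged if they kept their direction and side of the threshold. Values given without a test were so counted if they moved by less than the mean SD of the groups, and no threshold was applied to them. Genes called in eWAT, 5 as reported, were 2 with no minimum, 3 without a trend, 0 with the replicate block and 22 with all 16 libraries in 1 fit, and 1 to 6 without single libraries. In iWAT, 5 as reported, they were 3 with a pseudocount of 0.1, 0 with no minimum, 3 with median-ratio scaling, 10 over all genes of the table, 0 with the replicate block and 34 with all 16 libraries, and 0 to 5 without single libraries. In BAT, 0 as reported, they were 6 over all genes, 46 with the replicate block and 50 with all 16 libraries, and 0 to 136 without single libraries, 136 being without Ctrl replicate 2. For the interaction, 0 as reported, they were 1 with no minimum, 12 over all genes and 1 with all 16 libraries, and 0 to 1 without single libraries. Between eWAT and iWAT the Ctrl count was 2405 to 3346 and the HuR-FKO count 2377 to 4266 without single libraries. The replicate block, where numbers pair the libraries, changed no call of these genes. Where pairing was not seen it gave calls for Kpna2 in HuR-FKO against eWAT (adjusted p = 0.0306) and BAT (0.0018) in the comparisons with iWAT. Between genotypes in BAT, where pairing cannot be decided, it gave a call for Tnpo2 (0.0381). Under median-ratio scaling the sign changed for BAT minus iWAT in Ctrl to 0.67 (Tnpo2), 0.22 (Tnpo3), 0.011 (Kpnb1), 0.021 (Ipo5), 0.58 (Ipo7), 0.47 (Kpna1), 0.26 (Kpna2) and 0.26 (Kpna4), in HuR-FKO to 0.11 (Tnpo1), 0.24 (Tnpo3), 0.20 (Kpnb1), 0.69 (Ipo7), 0.75 (Kpna1), 0.35 (Kpna2) and 0.40 (Kpna4), for BAT minus eWAT in Ctrl to 0.14 (Tnpo1), 0.063 (Ipo5), 0.68 (Kpna1), 0.54 (Kpna2) and 0.23 (Kpna4), in HuR-FKO to 0.20 (Tnpo1), 0.17 (Kpnb1), 0.70 (Kpna2) and 0.26 (Kpna4), and for the interaction of Tnpo3 to 0.015. The scaling itself removes the shift of the median gene. Without single libraries the sign changed within these ranges: in eWAT, described without a test, Tnpo3 -0.031 to 0.032, Kpnb1 -0.13 to 0.014, Ipo7 -0.079 to 0.069, Kpna1 -0.092 to 0.0093, Kpna2 -0.16 to 0.15 and Kpna4 -0.029 to 0.17; in iWAT Tnpo1 -0.15 to 0.042, Kpnb1 -0.21 to 0.026, Kpna2 -0.15 to 0.19 and Kpna4 -0.17 to 0.0012; in BAT Tnpo1 -0.043 to 0.24, Kpnb1 -0.057 to 0.19, Ipo7 -0.36 to 0.16, Ipo9 -0.17 to 0.039, Kpna2 -7.27e-05 to 0.17 and Kpna4 -0.12 to 0.21; for BAT minus iWAT Ipo7 -0.49 to 0.036 in Ctrl and Kpna1 -0.12 to 0.00090 in HuR-FKO; for eWAT minus iWAT Kpnb1 -0.11 to 0.080 and Kpna4 -0.080 to 0.090 in Ctrl, and Tnpo1 -0.15 to 0.028 and Kpnb1 -0.077 to 0.13 in HuR-FKO; for BAT minus eWAT in HuR-FKO Kpna2 -0.25 to 0.055; and for the interaction Tnpo3 -0.070 to 0.097, Ipo7 -0.17 to 0.36, Kpna2 -0.11 to 0.23 and Kpna4 -0.047 to 0.28. Tnpo2 was lower in HuR-FKO under every alternative run in every depot, by -1.01 to -0.89 in eWAT, -0.50 to -0.35 in iWAT and -1.23 to -1.06 in BAT without single libraries. For the other shifts of calls the cause was not tested. FPKM without read totals and BAT groups of 2 pools limit what can be detected.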
